A study of Mus musculus with 2 samples.

Results

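Keratins are the intermediate filament proteins of epithelial cells. A type I keratin pairs with a type II keratin to build the filament, so that Krt18 (type I) is found with Krt8 (type II) in simple epithelium and Krt14 (type I) with Krt5 (type II) in the basal layer of stratified epithelium. In the thymus, antibodies to these proteins are widely used to tell regions apart: Krt8 and Krt18 mark the cortex, and Krt5 and Krt14 mark the medulla, whereas immature epithelial cells can carry both sets. The keratin genes were examined here in fetal thymic stromal cells kept in reaggregation thymus organ culture (RTOC) and in flat dish culture (2D culture). A probe was counted as a keratin probe when its name on the array began with Krt and a digit, or when its accession or older symbol mapped to a keratin, and 54 of 41174 probes, for 46 genes, met this rule. By the usual classes, 6 genes were simple keratins, 3 basal, 17 keratins of stratified epithelium, 18 hair keratins, and 2 (Krt88 and Krt222) were put in no class.

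The stroma came from C57BL/6 fetal thymus lobes of stage E14.5 in 1 experiment and E15.5 in the other, and the labels name no altered allele for any group. All lobes had first been held in organ culture with 1.35 mM deoxyguanosine, which depletes haematopoietic cells, for 8 days (E14.5) or 9 days (E15.5), and every group shares that treatment. The dispersed cells were then cultured for 72 h, either packed on a membrane (RTOC) or spread on a dish (2D culture), with no sorting step named for these cultures. On each of the 2 arrays the RNA of 2D culture carried the dye Cy3 and that of RTOC the dye Cy5. The dyes were not swapped, so dye and culture cannot be told apart, and the array carries stage and days in organ culture with it, so these 3 cannot be separated.

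Values are log2 ratios of RTOC over 2D culture unless called signals, which are quantile-normalized intensities and are compared within a probe, or summed over the probes of a marker list. Such a sum takes the brightest probe of each gene, and the genes with the highest signals weigh most in it. It is no measure of cell number. Each spot carries a flag of the scanner software that says whether it stood well above background, and limma was run on probes with that flag in 1 or both channels of each array. Of the 54 keratin probes 24 (21 of the 46 genes) met this, 7 had the flag in 1 channel of 1 array, and 23, among them every probe of 19 genes, had it in none. Of the 24 tested probes, 6 were higher in RTOC, 8 were lower, and 10 did not pass an adjusted p of 0.05. The probes of Krt79 and Krt222, counted as higher, entered the test through their RTOC channels alone. Over the 21 keratin probes with the flag in all 4 channels limma called 4 higher and 7 lower. Among all 20158 probes with the flag in all 4 channels it called 2843 higher and 3234 lower. Over all 23685 tested probes, 15.2% were called higher and 13.6% lower (28.8% in either direction), and 6 and 8 of 24 stand against those shares. With no filter on dim probes limma called 0 probes of the whole array, keratin or other, in either direction. Of the keratin probes, 10 (higher) and 8 (lower) then had an unadjusted p under 0.05. The median ratio of the tested keratin probes was -0.04 and that of all tested probes was -0.0071. The family thus had no common direction, and the genes within it went opposite ways. No keratin spot was saturated or marked as an outlier. RNA of whole cultures was measured, so fewer cells of a type and less RNA per cell cannot be told apart.

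The signals rest on the hybridization of 60-base probes, and the first 30 bases of the probes of the cortical and medullary pairs are given because the contrast of these pairs turns on them. Capitals mark the longest run that the probes of Krt8 and Krt18 share (11 bases).
Krt8 probe: TGGTGTCCGAGtcttctgatgtcgtgtcca
Krt18 probe: ggatggcagagTGGTGTCCGAGactaatga
Krt5 probe: cggatacccacctaaattctgtcctggttc
Krt14 probe: tctcagtcatccagagatgtgacctccacc
Over the 273 pairs of tested probes that name different keratin genes, the longest shared run was 13 bases (Krt7 and Krt79) and the median was 6 bases. The probes of Krt6a and Krt6b, genes that are near-identical copies, shared no run longer than 6 bases. These runs compare probes with probes, and whether a probe also binds the transcript of another keratin could not be checked, so the values of Krt6a and Krt6b are uncertain as to which copy they read.

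**Figure D1:**
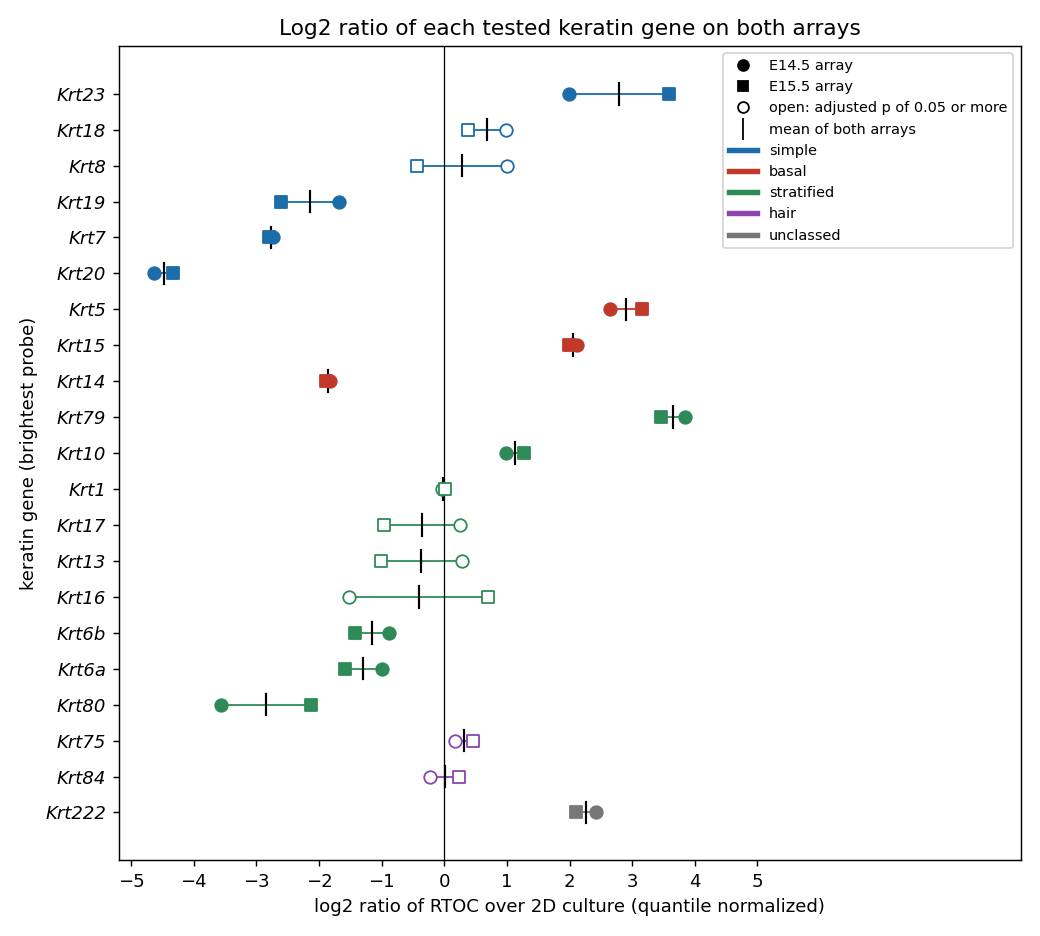
The log2 ratio of RTOC over 2D culture (x axis) is plotted for the brightest probe of each of the 21 tested keratin genes (y axis), with circles for the E14.5 array, squares for the E15.5 array, a black tick for their mean, colour for the class and open symbols for genes that did not pass the limma threshold. The genes measured in all 4 channels run from -4.48 (Krt20) to 2.90 (Krt5) in the mean, and every class with more than 2 tested genes has members on both sides of 0. The points of Krt79 and Krt222 are ratios over 2D signals at background, so their size is not reliable. The lower bounds of these genes, which are not drawn, were only 1.51-fold and 1.07-fold.

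The simple keratins, which single-layered epithelia express, went both ways. Of 6 genes, all measured in the 4 channels, Krt23 was higher in RTOC, Krt7, Krt19 and Krt20 were lower, and Krt8 and Krt18 did not pass the threshold, with a median of -0.93 over the 6. Krt8, the type II keratin of simple epithelium and of thymic cortex, had signals of 130796 (2D) and 262153 (RTOC) for E14.5 and of 378851 (2D) and 278670 (RTOC) for E15.5. Both RTOC channels lay between the 2D channels, so the cultures overlapped. Its ratio was 1.003 for E14.5 and -0.44 for E15.5, averaging 0.28 ± 1.02 (SD, n = 2; limma adjusted p = 0.624). A second probe of Krt8 also changed sign between the arrays, at 0.42 and -0.55.

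Krt18, the type I partner of Krt8, had signals of 109141 (2D) and 217151 (RTOC) for E14.5 and of 158739 (2D) and 206856 (RTOC) for E15.5. Both RTOC channels were above both 2D channels. The mean ratio of 0.69 ± 0.43 (SD, n = 2), or 1.61-fold, did not pass the threshold (limma adjusted p = 0.122). After normexp background correction with median centring it was 1.502 and did pass (limma adjusted p = 0.0375).

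Krt7, a type II keratin of ductal and glandular epithelium, had signals of 150905 and 192646 in 2D culture and of 22622 and 27536 in RTOC (E14.5 and E15.5). The cultures were far apart and the arrays close together. Its ratio was -2.74 and -2.81, averaging -2.77 ± 0.05 (SD, n = 2), which is 6.83-fold lower in RTOC (limma adjusted p = 0.00241), and a second probe was at -3.40 and -3.70. Krt19, a type I keratin of simple epithelium that lacks most of the tail domain, was at -1.68 and -2.60, averaging -2.14 ± 0.65 (SD, n = 2), or 4.42-fold lower (limma adjusted p = 0.008). Krt20, best known from the epithelium of the gut and urinary tract, had signals of 4071 and 2619 in 2D culture and of 164 and 130 in RTOC. Its mean of -4.48 ± 0.22 (SD, n = 2; limma adjusted p = 0.00161) was the lowest of the tested keratin genes in this processing. After normexp correction, which adds an offset of 50 to every signal and so shrinks the ratios of dim probes most, and loess, it was -2.53, above Krt7 at -2.63.

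Krt23, a type I keratin, was the simple keratin that was higher in RTOC, with signals of 128 and 107 in 2D culture and of 512 and 1286 in RTOC (E14.5, then E15.5). The 2D channels were close to each other and the RTOC channels were 2.51-fold apart. The mean ratio of 2.80 ± 1.13 (SD, n = 2; limma adjusted p = 0.00848) moved to 1.26 after normexp correction and loess.

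The basal keratins were all measured in the 4 channels and all changed, but the usual partners parted. Krt5, the type II keratin of basal cells and a marker of thymic medulla, had signals of 23328 and 23489 in 2D culture and of 145711 and 209912 in RTOC (E14.5 and E15.5). The 2D channels were nearly equal and both RTOC channels stood well apart from them. The ratio was 2.64 and 3.16, averaging 2.90 ± 0.37 (SD, n = 2), or 7.47-fold higher in RTOC (limma adjusted p = 0.0026). Krt14, its type I partner, had signals of 9248 and 5398 in 2D culture and of 2614 and 1458 in RTOC. Each RTOC channel was below each 2D channel. Its ratio was -1.82 and -1.89, averaging -1.86 ± 0.05 (SD, n = 2), or 3.62-fold lower (limma adjusted p = 0.00615). Krt15, another type I keratin of basal cells, had signals of 172 and 187 in 2D culture and of 748 and 743 in RTOC. It was higher in RTOC, at 2.06 ± 0.09 (SD, n = 2; 4.16-fold, limma adjusted p = 0.00465), and at 1.03 after normexp correction and loess. Krt5, Krt14, Krt15 and Krt18 have 1 probe each on the array, so no second probe checks them.

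**Figure D2:**
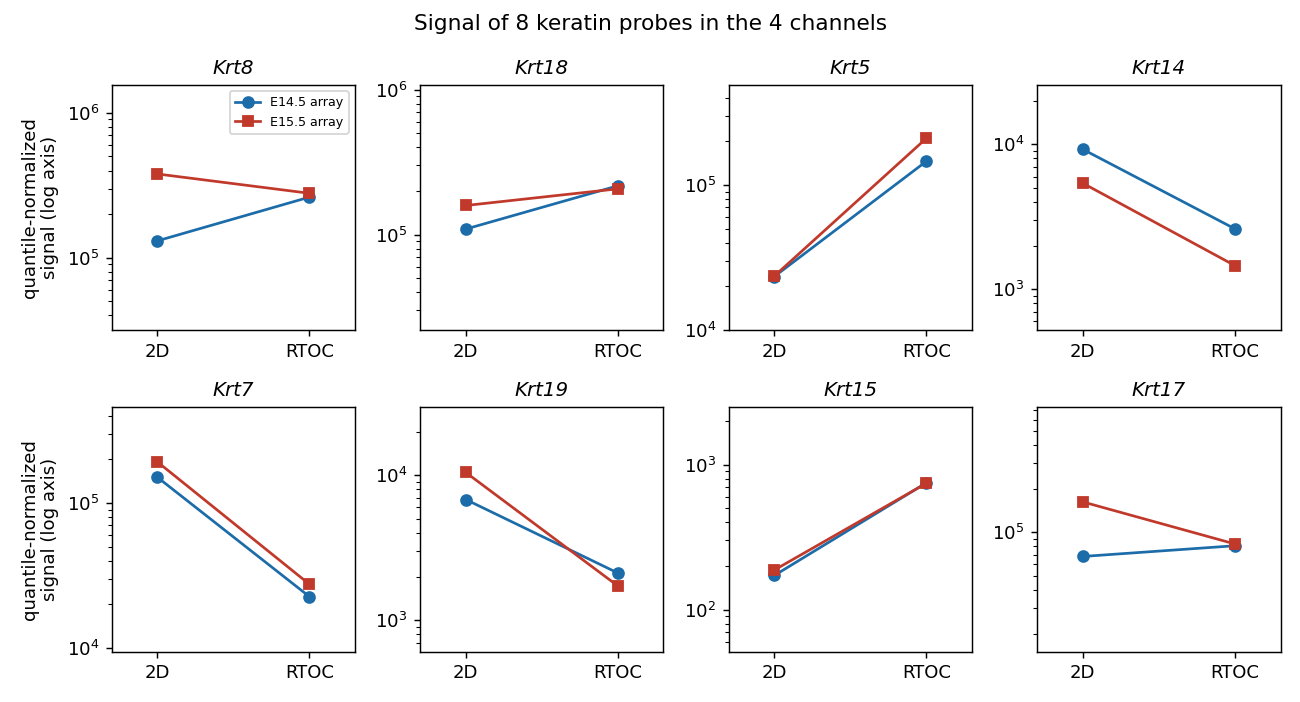
Quantile-normalized signal (y axis, log scale, each panel spanning the same number of log units) of 8 keratin probes in 2D culture and RTOC (x axis), with circles for the E14.5 array, squares for the E15.5 array and a line joining the channels of an array. The lines of Krt5 and Krt15 rise and those of Krt14, Krt7 and Krt19 fall on both arrays, whereas those of Krt8 and Krt17 rise for E14.5 and fall for E15.5.

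The contrast of the cortical pair with the medullary pair gave no common direction. The mean ratio of Krt8 and Krt18 minus that of Krt5 and Krt14 was 0.59 for E14.5 and -0.67 for E15.5, averaging -0.04 ± 0.89 (SD, n = 2). Flipping the signs of the arrays in an exact two-sided test gave p = 1, where 0.5 is the smallest that 2 arrays allow. For 2 arrays of opposite sign this test can give no other p, so no conclusion is drawn from it. Within the medullary pair the ratios lay far apart, and Krt5 exceeded Krt14 by 4.47 (E14.5) and 5.05 (E15.5), a mean of 4.76 ± 0.41 (SD, n = 2). Within the cortical pair the ratio of Krt8 minus that of Krt18 was 0.01 and -0.83. Set against the cortical pair singly, Krt5 was above Krt8 by 1.64 and 3.60 and above Krt18 by 1.65 and 2.78, and Krt14 was below Krt8 by 2.83 and 1.45 and below Krt18 by 2.82 and 2.27. The order Krt5, then Krt8 and Krt18, then Krt14 thus held on both arrays, with the ratio of Krt5 minus that of Krt14 at 4.64 after normexp correction and loess.

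Other marker genes of the thymic regions were measured beside the keratins. Of the cortical markers, 6 of 6 were higher in RTOC, by 3.08 (Ctsl) to 6.96 (Ccl25), with Psmb11 at 3.90, Prss16 at 5.29 and Ly75 at 4.47, and their summed signal was 34270 to 49559 in 2D culture and 637839 to 715830 in RTOC. Of 6 medullary markers with a probe, 3 were higher, namely Aire (at least 1.46-fold, its 2D channels being at background), Fezf2 (at least 1.28-fold, likewise) and Tnfrsf11a (1.22). Aire and Fezf2 entered the test through RTOC alone, and after normexp correction and loess neither passed the limma threshold (adjusted p = 0.0647 and 0.134). The other 3, Cldn3 (-3.26), Cldn4 (-4.26) and Ivl (-1.996), were lower, of which Ivl was at -0.55 after normexp correction and loess and did not pass (limma adjusted p = 0.11). The summed medullary signal was 17009 to 40147 in 2D culture and 2805 to 4219 in RTOC, most of it in 2D culture from Cldn3 (8811 and 21697) and Cldn4 (7430 and 17482). Among general epithelial genes, Foxn1, the transcription factor that thymic epithelium requires, was at 2.65 (higher), Cdh1, the epithelial cadherin, at -1.28 (lower) and Epcam at -0.70 (limma adjusted p = 0.0957). The sum of these 3 signals was 33763 to 66985 in 2D culture and 20771 to 29177 in RTOC.

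Cultured stroma can also hold mesothelium, a lining tissue that carries Krt7, Krt8, Krt18 and Krt19, and cells that are not epithelial. Msln, a marker of mesothelium, fell by 3.36, Wt1 was at -0.19 without passing the threshold, and Upk3b was well above background in no channel, with a summed signal of 18200 to 21497 in 2D culture and of 1263 to 3292 in RTOC. Of 4 smooth muscle markers 3 were lower, down to -4.33 for Tagln (489198 to 562009 summed in 2D culture, 37254 to 60918 in RTOC). Of 6 fibroblast markers 3 were higher, up to 4.55 for Lum, and 2 lower, down to -2.16 for Col1a1. The median ratio of the fibroblast markers was 1.26, although their sum was lower in RTOC (305249 to 383095 in 2D culture and 256973 to 277926 in RTOC). Of 4 endothelial markers 3 were tested and 2 were higher (417 to 1200 and 3420 to 5060). Pecam1, Cdh5 and Tek were at background in both 2D channels, so that Pecam1, called higher, entered the test through RTOC alone. Of 5 leukocyte markers 4 were tested and 2 were higher (2675 to 2693 and 6079 to 6195), led by Ptprc at 1.88. Cd3e was at -0.08 and Rag1 was at background in both 2D channels. Over all tested probes 15.2% were called higher and 13.6% lower. After normexp correction and loess Pecam1 (limma adjusted p = 0.0689) and the fibroblast gene Col1a2 (0.0507) lost their calls. The part of any of these cells in the keratin ratios was not tested.

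Of the 17 keratins of stratified epithelium, 9 were tested, of which 2 were higher in RTOC, 3 were lower and 4 did not pass, with a median of -0.37. Krt10, the type I keratin of the first suprabasal layers, had signals of 700 and 774 in 2D culture and of 1392 and 1872 in RTOC. Both RTOC channels were above both 2D channels, and the ratio was 1.13 ± 0.20 (SD, n = 2; 2.19-fold, limma adjusted p = 0.0275), or 0.73 after normexp correction and loess. A second, dimmer probe of Krt10 was at 0.48 and -0.18 and did not pass. Krt1, the type II partner of Krt10, was at -0.04 and 0.004 (limma adjusted p = 0.965), with signals between 109 and 139 in all 4 channels. Of the mucosal pair Krt4 and Krt13, Krt4 was well above background in no channel, and Krt13 was at 0.28 and -1.01 without passing.

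Krt6a and Krt6b, the type II keratins of injured and fast-dividing epithelium, were lower. Krt6a had signals of 1950 and 4601 in 2D culture and of 977 and 1527 in RTOC, and its ratio was -1.29 ± 0.42 (SD, n = 2; limma adjusted p = 0.024). Krt6b had signals of 825 and 1646 in 2D culture and of 446 and 614 in RTOC, and its ratio was -1.15 ± 0.38 (SD, n = 2; limma adjusted p = 0.0313). For both genes the RTOC channels lay below the 2D channels, and after normexp correction and loess neither passed (-1.02 with adjusted p = 0.055 and -0.70 with adjusted p = 0.0804). Their type I partners changed sign between the arrays: Krt16 was at -1.52 (E14.5) and 0.70 (E15.5), and Krt17 at 0.25 and -0.96. Krt17 had signals of 68116 and 162081 in 2D culture and of 80754 and 83077 in RTOC, so its RTOC channels lay between its 2D channels as those of Krt8 did.

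Krt80, a type II keratin of differentiating epithelium, had signals of 740 and 671 in 2D culture and of 62.8 and 154 in RTOC, and its RTOC channel for E14.5 was at background. Its ratio was -2.84 ± 1.02 (SD, n = 2; limma adjusted p = 0.00673), and -0.91 after normexp correction and loess. Krt79, a keratin of the upper hair follicle and sebaceous duct, stood at background in both 2D channels, and its RTOC level was higher by at least 1.51-fold (limma adjusted p = 0.00174). Krt222, a type I-like gene, was likewise dim there, with RTOC higher by at least 1.07-fold (limma adjusted p = 0.00395). Both probes entered the test through RTOC alone, so these p-values rest on 2D signals at background. The bounds set the RTOC signal, after normexp, loess and Aquantile normalization, against the lowest signal well above background, and are open to dye bias. After normexp correction and loess neither Krt79 (0.65, adjusted p = 0.0521) nor Krt222 (0.14, adjusted p = 0.452) passed the limma threshold.

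**Figure D3:**
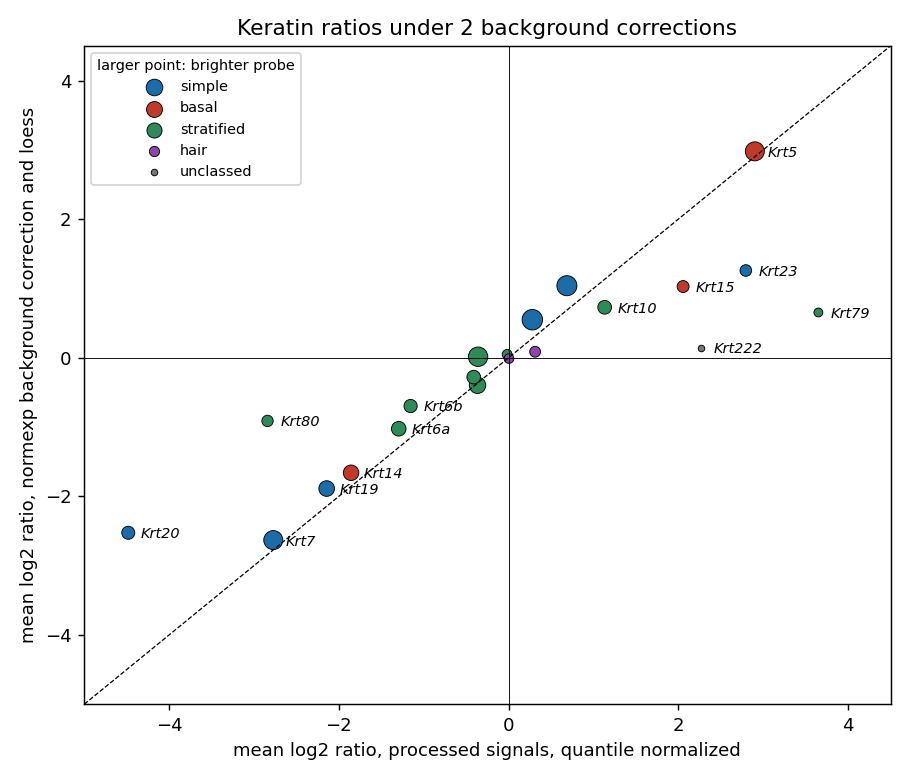
Mean log2 ratio of each tested keratin gene from processed signals after quantile normalization (x axis) against that after normexp background correction and loess (y axis), with the dashed line for equal values, colour for class and larger points for brighter probes. Krt5, Krt7 and Krt14 stay near the line at 2.98, -2.63 and -1.66, whereas the dim probes of Krt79 and Krt222 move from 3.65 and 2.27 to 0.65 and 0.14.

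The hair keratins were mostly undetected. Of 18 genes, 14 were well above background in no channel, 2 (Krt28 and Krt36) were so in 1 channel, and 2 were tested, namely Krt75, a keratin of the companion layer of the follicle, at 0.31 and Krt84 at 0.01, neither of which passed. Of 49 probes of keratin-associated proteins, the sulphur-rich matrix in which hair keratins lie, 35 were well above background in no channel and 10 in all 4. Of the 12 that were tested, 2 passed the limma threshold, both higher in RTOC, near the 15.2% of all tested probes called higher. The stratified keratins left untested were Krt2, Krt4, Krt12, Krt42 and Krt90, well above background in no channel, and Krt9, Krt76 and Krt78, well above background in 1.

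The ratios of E14.5 and E15.5 had opposite signs at 8 of the 24 tested keratin probes, or 33.3%, and at 19.9% of all tested probes. On both arrays at once, 5 keratin probes were at least 2-fold higher and 6 at least 2-fold lower in RTOC, where 10.8% and 9.35% of all tested probes were. The 5 include the probes of Krt79 and Krt222, whose 2D signals were at background and whose lower bounds were only 1.51-fold and 1.07-fold. For several of the bright keratins whose sign changed, the 2D channel differed between the stages more than the RTOC channel did. The signal of E15.5 over E14.5 was 2.90-fold in 2D culture and 1.06-fold in RTOC for Krt8, 2.70-fold and 1.11-fold for Krt13, and 2.38-fold and 1.03-fold for Krt17. Krt6a (2.36-fold and 1.56-fold) and Krt6b (2.00-fold and 1.38-fold) went the same way, while Krt16 was at 0.304-fold in 2D culture and 1.41-fold in RTOC. Over the 18 keratin genes measured in all 4 channels, the difference between the stages was larger in 2D culture for 11 (61.1%), against 59.1% of the 20158 probes so measured, so the keratins were near the background in this. There was 1 sample for each stage and culture, and these differences were not tested.

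**Figure D4:**
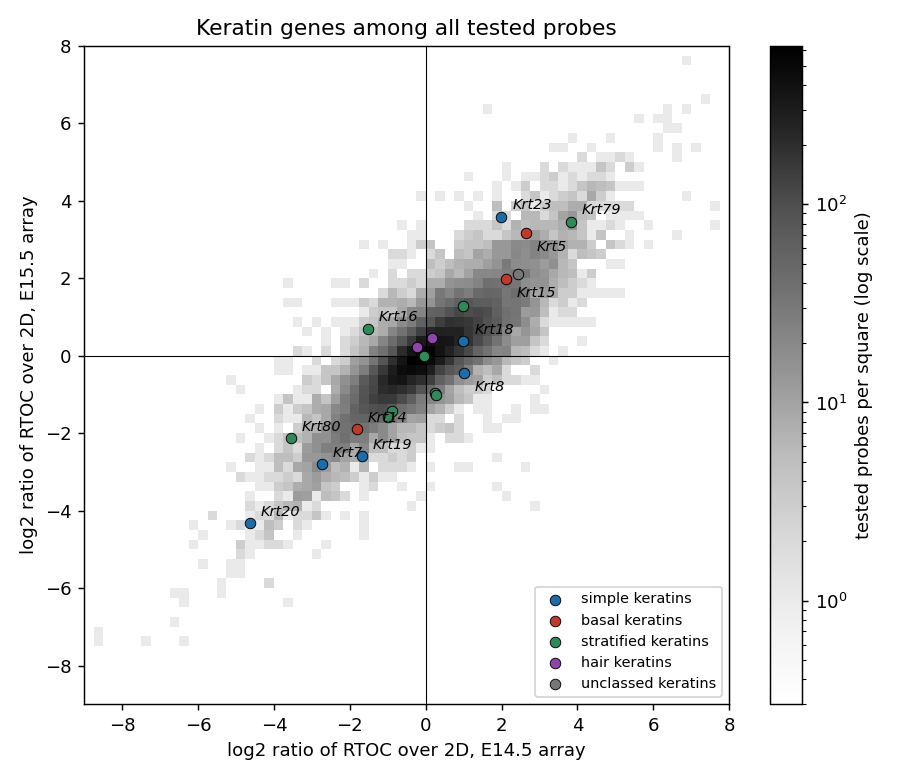
Log2 ratio of RTOC over 2D culture on the E14.5 array (x axis) and the E15.5 array (y axis), with grey squares for the number of tested probes (log scale) and coloured points for the 21 tested keratin genes by class, some of them named. Krt5, Krt15, Krt23 and Krt79 lie in the upper right, Krt7, Krt14, Krt19, Krt20 and Krt80 in the lower left, and Krt8 (1.003 and -0.44) and Krt16 (-1.52 and 0.70) in the quadrants of opposite sign.

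Keratin genes lie in clusters, the type I genes on chromosome 11 and the type II genes with Krt18 on chromosome 15. In the order of the reference annotation, neighbours often differed in direction. Krt15 (2.06) and Krt19 (-2.14) are next to each other in the type I cluster, as are Krt20 (-4.48) and Krt23 (2.80), and Krt14 (-1.86), Krt16 and Krt17 follow in a row. In the type II cluster, Krt6b (-1.15) and Krt6a (-1.29) stand beside Krt5 (2.90), and Krt80 (-2.84) beside Krt7 (-2.77) at the end, both lower. Krt8 and Krt18 close the row side by side. How far neighbours in general differ was not tested.

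**Figure D5:**
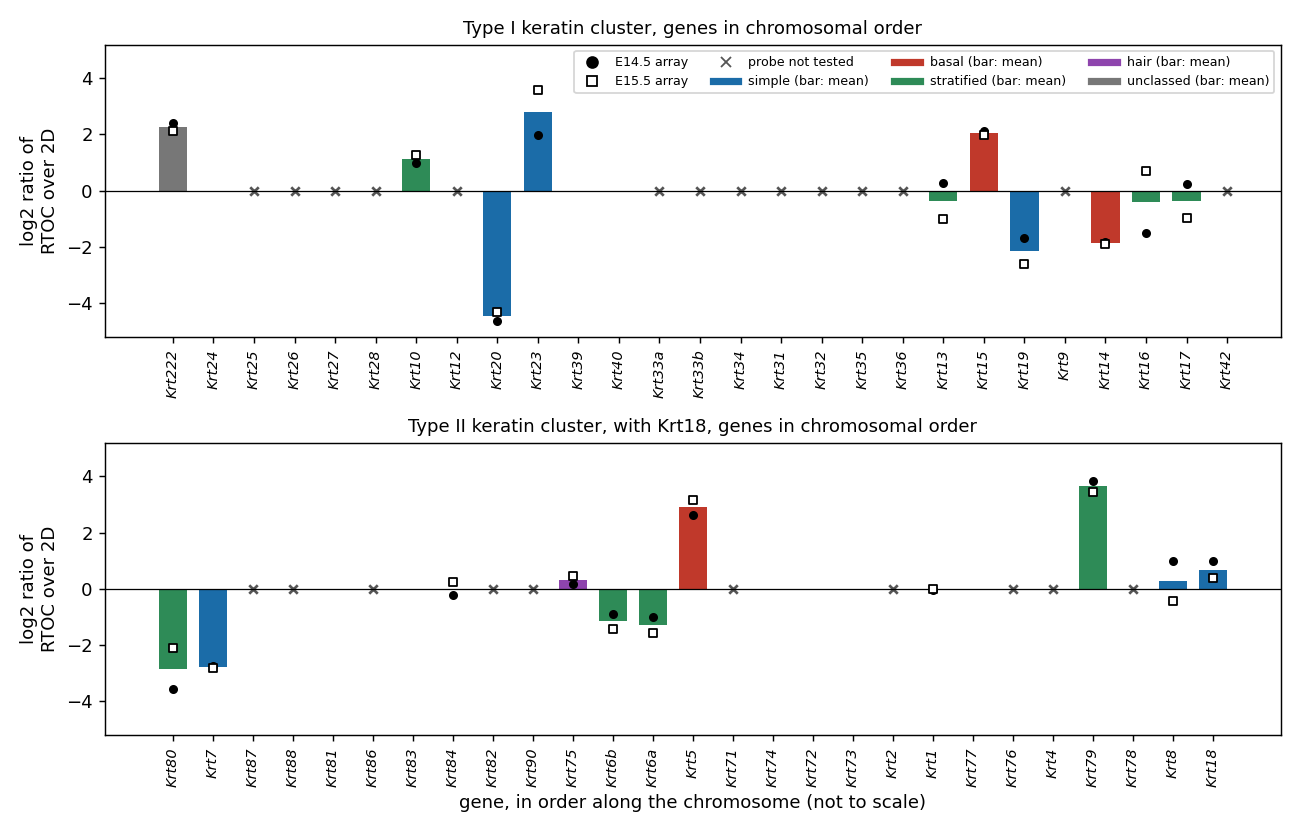
Mean log2 ratio of RTOC over 2D culture (bars, coloured by class) with the E14.5 array (filled circles) and the E15.5 array (open squares), for genes in their order along the type I cluster (top) and the type II cluster (bottom), not to scale; crosses mark genes whose probe was not tested, and genes with no mark had no keratin probe found by the rule. Bars of opposite sign stand side by side at Krt20 and Krt23, at Krt15 and Krt19, and at Krt6a and Krt5.

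The promoters of the 4 marker keratins are given as genomic context for the split of Krt5 and Krt14 and for the cortical pair, from RefSeq, in assembly GRCm38.p6. Each run is the 250 bases before the annotated start, 5′ to 3′ on the strand of the gene, and promoters of 30 of the 46 genes were found in the table. Capitals mark matches, on either strand, to TATAAA (the TATA box), TGANTCA (the AP-1 motif), GCCNNNGGC (the AP-2 motif) or ACGC (the core of the Foxn1 motif), which can overlap.
Krt5 chr15:101712906-101713155 (-): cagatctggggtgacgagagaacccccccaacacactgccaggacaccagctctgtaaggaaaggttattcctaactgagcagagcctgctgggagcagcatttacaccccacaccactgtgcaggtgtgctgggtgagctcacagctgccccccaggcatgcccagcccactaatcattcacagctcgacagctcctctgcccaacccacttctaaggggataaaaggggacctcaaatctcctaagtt
Krt14 chr11:100206031-100206280 (-): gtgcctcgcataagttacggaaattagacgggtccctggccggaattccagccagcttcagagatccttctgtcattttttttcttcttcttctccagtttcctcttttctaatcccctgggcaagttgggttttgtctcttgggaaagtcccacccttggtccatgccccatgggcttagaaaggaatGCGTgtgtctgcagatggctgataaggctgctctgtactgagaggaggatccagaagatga
Krt8 chr15:102004343-102004592 (-): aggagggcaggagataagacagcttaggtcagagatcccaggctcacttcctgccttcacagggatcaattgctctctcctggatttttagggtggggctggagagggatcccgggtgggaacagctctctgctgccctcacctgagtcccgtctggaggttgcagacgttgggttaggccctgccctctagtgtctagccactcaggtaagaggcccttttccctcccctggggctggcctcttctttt
Krt18 chr15:102027966-102028215 (+): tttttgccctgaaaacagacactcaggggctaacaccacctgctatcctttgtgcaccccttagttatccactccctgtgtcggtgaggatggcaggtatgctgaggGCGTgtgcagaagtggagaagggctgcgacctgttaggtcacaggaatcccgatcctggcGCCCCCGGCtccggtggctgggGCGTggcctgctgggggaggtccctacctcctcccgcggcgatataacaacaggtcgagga
The windows of Krt5 and Krt8 held none of the 4 strings. That of Krt14 held 1 ACGC core, 61 bases before the start, and that of Krt18 held 2 (143 and 61 bases before the start) and 1 AP-2 match. The ACGC core was in 13 of 30 keratin promoters (43.3%) and in 49.8% of 32851 promoters, the AP-2 string in 16.7% and 13.7%, and the AP-1 string in 3.33% and 6.75%.

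The TATAAA string was in 14 of 30 keratin promoters (46.7%), against 12.4% of all, and within 20 to 40 bases of the start, where a TATA box works, in 11 of 30 (36.7%), against 2.50%. No test was made of these shares. Of those 11 genes 2 were tested, Krt10 (higher in RTOC) and Krt20 (lower), and 9 belonged to the 18 keratin genes with a promoter that were not tested. The windows of 30 bases around the string are shown for these 2 and for 4 hair and stratified keratins that were not tested, with the string in capitals.
Krt10 chr11:99389373-99389402 (-): gccctctcagtaTATAAAggctcggcactg
Krt20 chr11:99438165-99438194 (-): tctcttgaactcTATAAAaggtcatctcca
Krt12 chr11:99422271-99422300 (-): cacctcccagccTATAAAggcaggacccct
Krt25 chr11:99322964-99322993 (-): ttgagaatcgtcTATAAAagggcaaacaaa
Krt31 chr11:100050563-100050592 (-): ctgtagaaggctTATAAAgtctcaccaagg
Krt76 chr15:101892932-101892961 (-): ggcagcctgggaTATAAAggccagcttccc
The 4 marker keratins had no TATAAA within the 250 bases. A match is a description of letters, and none of these promoters was assayed here.

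Genes that act with keratins were counted from lists of known members. Of the regulators of keratin and epithelial genes, 12 were tested, of which 7 were higher in RTOC, 2 were lower and 3 did not pass, with a median of 0.996. Over all tested probes 15.2% were higher and 13.6% lower. Trp63, the p53 relative that basal epithelium needs and a known activator of Krt5 and Krt14, was at 4.15 and 3.24 (mean 3.70 ± 0.64, SD, n = 2; limma adjusted p = 0.00228). Grhl1, a factor of epithelial junctions, was at 2.72 and Ovol1 at 1.78. Elf5 and Ehf, at background in both 2D channels, entered the test through RTOC alone and were higher by at least 2.11-fold and 1.303-fold. Klf4 (-2.10) and Klf5 (-1.20), factors of differentiating epithelium, were lower. After normexp correction and loess Ovol1 (limma adjusted p = 0.0879), Ehf (0.0842), Klf4 (0.071) and Klf5 (0.0602) did not pass. Trp63 was thus higher in RTOC together with Krt5 and Krt15, and Krt14 was lower.

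Of the proteins that anchor keratin filaments at desmosomes and hemidesmosomes 13 were tested, of which 2 were higher, 7 were lower and 4 did not pass, with a median of -0.99, where 15.2% of all tested probes were higher and 13.6% lower. Desmoplakin (Dsp), which ties keratin to the desmosome, was at 1.82 and Pkp4 at 1.64. Plakophilin 2 (Pkp2) was at -3.49, and the hemidesmosome genes Col17a1 (-2.96), Itgb4 (-2.47) and Plec (-1.84) were lower, while plakoglobin (Jup) was at -0.81 (limma adjusted p = 0.0624). Of 16 other intermediate filament genes 10 were tested, with Nefm (3.67) and Synm (3.62) higher and Nes (-2.64), Lmna (-1.71), Vim (-1.65) and Sync (-1.18) lower, and Des was well above background in no channel. Of 10 partners of cornified keratins 7 were tested, with Spink5, a protease inhibitor of the outer epidermis, at 3.55 (higher), Ivl (-1.996), Sprr1a (-1.93) and Tgm1 (-1.46) lower, Tchh (-0.44) and Lor (-0.19) not past the threshold, and Flg not tested. Sync, Ivl and Tgm1 did not pass after normexp correction and loess (limma adjusted p = 0.32, 0.11 and 0.161).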

How the data were processed

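RNA of thymic stromal cells in RTOC (Cy5) and 2D culture (Cy3) was measured on 2 two-colour Agilent whole mouse genome arrays. The authors scanned them and ran Feature Extraction (11.5.1.1 in the submitters' processing notes, 9.1.3.1 in the file headers). The deposited scanner files hold, per spot, mean signal, background and processed signal as intensity, the last after background subtraction and dye normalization, and a log10 ratio of Cy5 over Cy3. The deposited series table holds the log10 ratio of the processed signals. In the scanner files the log ratio was set to 0 at 10879 (E14.5) and 10531 (E15.5) spots where the ratio of processed signals was not 0. The labels name TRIzol for RNA and the methods a column kit, and the build behind the probes is not given in the sources used here.

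From the processed signals, control spots and outlier-flagged spots (5 for E14.5, 1 for E15.5) were removed, the 4 channels were quantile normalized as in the methods, and log2 of Cy5 over Cy3 was averaged over spots of a probe, with no pseudocount. Probes were renamed through accessions and symbols of a RefSeq table (of the keratin probes, 42 by accession, 10 by symbol, 1 by an older symbol and 1 by its name in the files). The 2 arrays, 1 for each stage, were replicates of 1 ratio. The ratio was tested over the 23685 probes that passed the background filter with limma 3.58.1 (R 4.3.3; intercept, eBayes, two-sided, Benjamini-Hochberg, threshold 0.05), leaving 1 residual degree of freedom. The eBayes step pools variance over all tested probes. A limma p-value therefore does not measure a probe's own spread between these arrays alone. The standard error of Krt7 was 0.25 in limma and 0.034 in the methods' t-test. That of Krt23 was 0.42 in limma and 0.80 in the methods' t-test. The spread between the arrays also includes any effect of stage and of days in organ culture. Only the limma fit was run on simulated data, with independent arrays and variances drawn from its own fitted prior. The steps before the fit were not tested in this way. The brightest probe stands for a gene, and others are given where they differ. The number of arrays and the signal over background limit the precision: 53.1% (2D) and 56.3% (RTOC) of probes were well above background for E14.5, and 53.5% and 60.9% for E15.5. Both arrays lay on 1 slide in 1 scan.

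Named were the 4 marker keratins, the fixed partner pairs and every keratin past the threshold. For each list the plan was to name up to 6 genes past the threshold by size and the first 3. Not all of these are named, so the list genes given by name are a choice. The keratin members and all gene lists were chosen with earlier results of these data known. Alternatives were normexp (offset 50) with loess, Aquantile or median centring, median centring of processed signals, the deposited log ratios and series values, no and a stricter background filter, outlier spots retained, 1 array removed in turn, a fit with no replicate block, trended robust eBayes, the methods' t-test, a 2-fold rule and the median over probes. Promoters came from a RefSeq table. Figures were drawn with matplotlib 3.10.9.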

Additional observations from a re-analysis of the deposited data

Results flagged for a closer look

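With 1 array for each stage, E14.5 and E15.5 cells moved in opposite directions at 8 keratin probes and in the contrast of marker pairs, and no test of the stages against each other could be made at any of them, so these differences were not tested. The values that follow are the log2 ratio of RTOC over 2D culture on the E15.5 array minus that on the E14.5 array. The difference was -1.45 for Krt8, with -0.98 for its second probe, -1.28 for Krt13, -1.21 for Krt17 and 2.22 for Krt16. It was -0.65 for the second probe of Krt10, whose brighter probe was positive on both arrays, 0.46 for Krt84 and 0.042 for Krt1, both of which stayed near 0 on both arrays. The mean of Krt8 and Krt18 minus that of Krt5 and Krt14 differed by -1.25. Of the tested probes at large, 19.9% had opposite signs.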

How the results depend on the processing

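The counts of called keratin probes (6 higher, 8 lower in RTOC) depended most on the test and the background filter. With no filter on dim probes limma called 0 higher and 0 lower, among the keratin probes and over the whole array alike. Of the keratin probes, 10 and 8 then had an unadjusted p under 0.05. The methods' t-test called 0 and 0 keratin probes after Benjamini-Hochberg and 3 and 4 unadjusted. Over all tested probes it called 0 and 0 after Benjamini-Hochberg and 1645 and 1894 unadjusted. With normexp and median centring 3 were higher and 5 lower. The other settings kept both counts within 1.5 times. The fit without the replicate block, in which the 4 channels count as separate samples, called 5 higher and 6 lower, and Krt10 (adjusted p = 0.0526), Krt6a (0.126) and Krt6b (0.114) lost their call in it. With 1 array left out there is no residual degree of freedom, so no calls were counted.

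The pair contrast moved by less than its spread between arrays, changing sign to 0.13 with normexp and loess and to 0.34 with normexp and median centring, and ran from -0.67 to 0.59 with 1 array left out. Ratios changed sign for genes that did not pass the threshold. Krt1 became 0.048 (normexp and loess, also with Aquantile), 0.12 (normexp and median centring), 0.21 (processed signals, median centring), 0.062 (both deposited ratios) and 0.24 (median over probes). Krt17 became 0.015 (normexp and loess, also with Aquantile) and 0.42 (normexp and median centring). With 1 array left out in turn, Krt8 ran from -0.44 to 1.003, Krt1 from -0.038 to 0.00403, Krt13 from -1.01 to 0.28, Krt16 from -1.52 to 0.70 and Krt17 from -0.96 to 0.25. Median centring was done over all probes, and the median of the tested probes then lay at up to 0.24 (E15.5 array, processed signals). The adjusted p of Krt5 ranged from 0.000148 to 0.334 and that of Krt14 from 0.00188 to 0.327 over 13 settings, the upper ends from the methods' t-test. The causes were not tested. Dim probes limit the size of Krt15, Krt20, Krt23, Krt79, Krt80 and Krt222.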
